A study of Drosophila melanogaster with 2 samples.

Results

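A total of 784 of the 3434 peaks called for CG10959 in fly embryos had a summit in an intron, over 500 and up to 5000 bp from the nearest transcription start site (TSS). They were chosen from the authors' pooled list of peaks past the irreproducible discovery rate (IDR) threshold, called the main list here, by position alone. A peak was a member where its summit lay inside an annotated gene, in no annotated exon, and in that range of distances from the nearest TSS of any gene. The main chromosome arms held 3417 of the main-list peaks, and the members were on X (188), 2L (122), 2R (131), 3L (168), 3R (174) and 4 (1). The study immunoprecipitated chromatin of whole embryos, aged 0 to 8 h, from a transgenic fly strain that expressed CG10959 fused to eGFP, using an antibody against GFP. The labels give 2 biological replicates of this single group and no other condition, treatment or stage. The labels used here do not state the promoter that drives the fusion, the number of embryos or whether untagged CG10959 was present. The same rule found 494 members among 2043 peaks on the arms in the list of replicate 1, 540 of 2328 in that of replicate 2, and 750 of 3172 in the conservative pooled list. All cells of the embryo are mixed in such a sample, so strong binding in few cells and weak binding in many cannot be told apart.

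CG10959 encodes a fly protein, and the immunoprecipitated DNA marks where the tagged protein, or something it was bound to, could be crosslinked to chromatin. Introns close to a start site are known in flies for holding enhancers, internal promoters and other sequences that set when and where a gene is transcribed. The first intron of long developmental genes is often rich in such elements. The summit of a peak is the position where the authors' caller placed the highest enrichment, and it is the best single estimate of where the protein sat.

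Summit sequences are shown first because the base composition at the summit varied with the strength of the peaks. All were taken from RefSeq's copy of dm6 and read 5′ to 3′ on the forward strand, whatever the strand of the host gene. The strongest member lay in CG11050 (2L, signal 1500.5), and chr2L:6612564-6612862 around it is given with the 51 bases centred on the summit in capitals.
CG11050: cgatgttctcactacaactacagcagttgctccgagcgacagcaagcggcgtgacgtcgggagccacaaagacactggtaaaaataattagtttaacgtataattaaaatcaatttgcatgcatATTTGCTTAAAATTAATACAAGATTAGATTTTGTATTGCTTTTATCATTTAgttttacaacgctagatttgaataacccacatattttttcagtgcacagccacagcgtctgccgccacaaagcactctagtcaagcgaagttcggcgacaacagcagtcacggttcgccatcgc
In the next lines, capitals mark runs of 5 or more A or T within 50 bp of the summit. These are strong members in CG32772 (chrX:4910312-4910412), Tlk (chrX:3742165-3742265), Trl (chr3L:14759440-14759540), LPCAT (chrX:9579249-9579349) and mub (chr3L:21880448-21880548), of which the window in mub, with a GC content of 46.5%, was not A and T rich, and a weak member with a signal of 41.887 in CG32264 (chr3L:3803005-3803105). The weak peak overlaps a stronger member of CG32264, with a signal of 94.773.
CG32772: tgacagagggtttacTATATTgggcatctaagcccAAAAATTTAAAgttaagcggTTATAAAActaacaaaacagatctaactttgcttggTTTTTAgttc
Tlk: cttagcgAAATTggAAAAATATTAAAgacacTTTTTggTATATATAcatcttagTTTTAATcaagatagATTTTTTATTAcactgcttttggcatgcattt
Trl: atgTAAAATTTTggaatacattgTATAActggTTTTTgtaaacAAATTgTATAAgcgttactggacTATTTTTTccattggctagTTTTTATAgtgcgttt
LPCAT: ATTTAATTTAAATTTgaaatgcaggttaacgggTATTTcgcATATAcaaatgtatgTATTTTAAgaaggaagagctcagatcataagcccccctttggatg
mub: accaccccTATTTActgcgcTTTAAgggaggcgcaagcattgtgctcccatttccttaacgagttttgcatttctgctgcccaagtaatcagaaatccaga
CG32264: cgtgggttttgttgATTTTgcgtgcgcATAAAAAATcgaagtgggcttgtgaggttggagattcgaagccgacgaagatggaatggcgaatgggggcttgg
The last line shows the summit in Pak3 (chr3R:16449361-16449461), with a match to the homeodomain core letters in capitals.
Pak3: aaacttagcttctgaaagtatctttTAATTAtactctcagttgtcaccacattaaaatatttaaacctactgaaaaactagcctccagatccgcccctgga

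GC content fell at the summits of members and rose again within about 100 bp. The median GC content within 50 bp of the summit was 33.7%, against 43.6% in a window of the same length centred 300 bp farther from the nearest TSS. The summit window was lower in 559 members and higher in 213 (exact sign test, two-sided, p = 1.29e-36, with a median difference of -8.91 percentage points). The rule keeps summits out of exons but not flanks, and among the 712 members with no exon base in either window the median difference was -7.92 points (exact sign test, p = 1.71e-29). Over the 222824 windows that tile all intronic DNA meeting the rule, the same difference from a flank had a median of -0.990 points, and over the 200256 of them with no exon base in either window it was 0. All windows meeting the rule had a median GC content of 39.6%. A GC content under 30% was found at the summits of 256 members (32.7%), against 16.8% of all windows.

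The decrease was deepest in the strongest members. When the members were split by signal into 4 groups of 196, the median GC content at the summit was 30.7% in the strongest group, 31.7% in the next, 34.7% in the group after that and 44.6% in the weakest. The flanks of the 4 groups differed little, with medians between 43.6% and 44.6%. The summit was lower than the flank in 167 of 196 members in the strongest group, and in 156 and 135 in the middle groups. In the weakest group it was higher in 93, and the test did not pass (exact sign test, p = 0.615). That group holds the 33 members with a signal under 40, of which 32 had a stronger main-list summit within 400 bp. Their median difference was 3.96 points (exact sign test, p = 0.487), and the group was not tested without them. The Spearman correlation of signal with GC content at the summit was -0.411 across the 784 members, which share libraries and are not independent replicates. Presence in both replicates' lists went with signal, at 98.0% of the strongest group and 5.61% of the weakest. A split by presence is therefore not separate support. In that split the summit was lower than the flank in 298 of the 372 members present in both replicates' lists. It was lower in 103 of the 185 present in neither (exact sign test, p = 0.121). The part of base composition in how peaks were called was not tested.

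**Figure D1:**
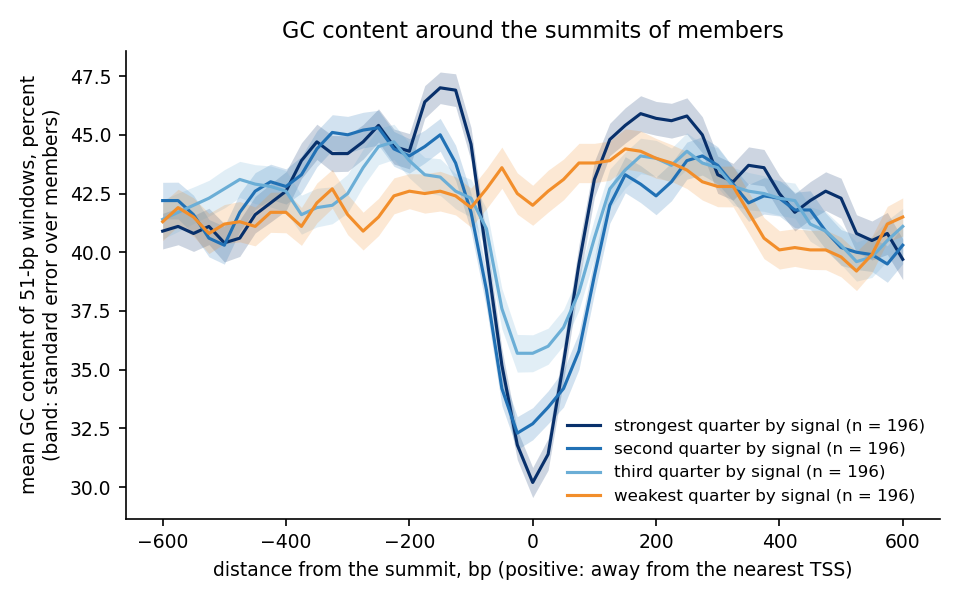
Mean GC content in percent of 51-bp windows, in steps of 25 bp, against the distance from the summit in bp, for the 4 groups of 196 members by signal; bands are standard errors over members. The strongest group falls to 30.2% at the summit, while the weakest stays at 42.0% there.

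The other classes of peaks showed a decrease of the same kind, so it was not particular to introns near a start site. The median difference was -6.93 points in 1336 promoter peaks (summit within 500 bp of a TSS), -9.90 points in 424 far intronic peaks (over 5000 bp from a TSS) and -8.91 points in 420 near intergenic peaks (over 500 and up to 5000 bp from a TSS). Runs of 5 or more A or T covered a median of 30 bases of the window at the members' summits, 17 in their flanks and 23 in all windows meeting the rule. In the strongest group they covered 36 bases and in the weakest 18.

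Of 32 sequence motifs searched on both strands, 5 (15.6%) differed between summit and flank (exact McNemar test, Benjamini-Hochberg adjusted p under 0.05). The motifs were chosen with earlier results of these data known. The TATA box letters TATAAAA, the core element that the TATA-binding protein contacts, stood in 72 summit windows (9.18%) and 32 flanks (4.08%), with an adjusted p of 0.00210 by the exact McNemar test, against 5.39% of all windows meeting the rule. The excess was in the stronger members: 24 against 9 in the strongest group and 29 against 7 in the next, but 8 against 8 and 11 against 8 in the others. The homeodomain core TAATTA, which many homeobox proteins bind, stood in 82 summit windows (10.5%) and 49 flanks (6.25%; exact McNemar test, adjusted p = 0.0299), against 8.11% of all windows. The homeodomain difference did not pass in the list of either replicate alone (exact McNemar test, adjusted p of 0.0550 and 0.508), in the conservative list (0.120), over 1000 bp from a TSS (0.0885) or with no exon base in either window (0.0948). The remaining motifs that passed were lower at the summit than in the flank. GAGAG, bound by the GAGA factor Trl, stood in 11.6% of summits and 17.3% of flanks (exact McNemar test, adjusted p = 0.0166). It stood in 11.2% of all windows meeting the rule, so the flank was raised and the summit was near that share. Its longer repeat GAGAGAGA, which contains GAGAG and which the dosage compensation factor CLAMP also binds, stood in 0.255% and 2.17% (exact McNemar test, adjusted p = 0.0117). The CTCF core AGGNGGC stood in 2.68% and 5.61% (exact McNemar test, adjusted p = 0.0379). In all windows meeting the rule, GAGAGAGA stood in 0.742% and the CTCF core in 3.22%. For both, the flanks were above these shares and the summits below them.

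With GC content matched, no motif passed. In the 184 members whose summit and flank differed by 5 points of GC or less, 0 of the 32 motifs passed the exact McNemar test, and the TATA box share at the summit differed by -3.26 points from that in the flank (adjusted p = 1.00). That subset also holds fewer members. It leaves out most of the strongest group and of the next, whose median differences from the flank were -12.9 and -11.4 points. The TATA box excess was in those groups. Whether its loss went with GC content, signal or the size of the subset was not tested. With the flank moved to 600 bp, the TATA box alone passed among motifs higher at the summit, and none passed among the lower ones. Leaving out replicate 1, by using the list of replicate 2, left 1 motif higher and none lower.

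The 8-mers were also rich in A and T, and their result was less stable. They were not tested with GC content matched, so they are not separate support beside the GC decrease. They were ranked on the 253 members of the arms of chromosome 2 and the first 10 were tested on the 530 members of 3L, 3R and X. Of these 10, 6 (60.0%) were more frequent at the summit than in the flank (exact McNemar test, adjusted p under 0.05), and 9 of the 10 held only A and T. The most frequent was ATTATTTA, in 27 summits and 8 flanks (adjusted p = 0.00859), followed among those that passed by AATTTAAA, in 23 and 9 (adjusted p = 0.0322). None passed when only members over 1000 bp from a TSS were used, when the flank lay towards the TSS or 600 bp away, among the strongest 500 peaks, or in the list of replicate 2 alone, and 3 passed in the list of replicate 1 alone. Both motifs that were more frequent at the summit also held only A and T.

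Members held 2 motifs less often than promoter peaks did. Of 96 tests of a motif in members against a class, 2 (2.08%) passed (Fisher's exact test, two-sided, adjusted p under 0.05). The BEAF-32 core CGATA, the letters bound by the insulator protein BEAF-32, stood in 9.95% of members' summits and 17.2% of promoter peaks' (Fisher's exact test, adjusted p = 0.000374). The DRE, TATCGATA, bound by the transcription factor DREF at promoters of housekeeping genes, overlaps the BEAF-32 core and stood in 0.128% and 2.17% (Fisher's exact test, adjusted p = 0.00124). Against far intronic and near intergenic peaks no motif passed: the BEAF-32 core stood in 10.1% and 9.29% of these (adjusted p = 1.00 by Fisher's exact test), and the DRE in 0 of 424 and 0 of 420. Neither difference from promoter peaks passed in the list of replicate 1 alone, with adjusted p of 0.150 and 0.460 by Fisher's exact test.

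Members were of intermediate strength. Their signal, the authors' measure of enrichment, whose scale is not stated, had a median of 126.7, quartiles of 95.91 and 196.2, and a range from 2.087 to 1501. A signal above the main list's median of 124.9 was found in 403 members (51.4%, against 49.6% of the other main-list peaks). The share was 58.8% of promoter peaks (adjusted p = 0.00329, Fisher's exact test, two-sided, over 3 classes), 43.9% of far intronic peaks (adjusted p = 0.0156) and 44.0% of near intergenic peaks (adjusted p = 0.0156). Members were thus weaker than promoter peaks and stronger than the 2 other classes in this list. With replicate 2's own list, far intronic peaks no longer differed past the threshold (5.36 points, adjusted p = 0.230 by Fisher's exact test). There the difference from near intergenic peaks turned to -0.684 points, and in that of replicate 1 alone it was 5.75 points (Fisher's exact test, adjusted p = 0.172). Among the strongest 500 peaks, which held 108 members, the difference from promoter peaks turned to 2.46 points (Fisher's exact test, adjusted p = 0.733). Peaks, not embryos, are the units of these tests, so the p-values speak of the peaks of these lists only.

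Presence in both replicates followed the same order. Of the members, 372 (47.4%, 95% Wilson interval 44.0 to 50.9%) overlapped a peak in each replicate's list, against 46.8% of all main-list peaks. A further 95 were in the list of replicate 1 only, 132 in that of replicate 2 only, and 185 in neither. The share in both lists was 55.5% of promoter peaks (adjusted p = 0.00111), 40.6% of far intronic peaks (adjusted p = 0.0249) and 168 of 420 near intergenic peaks (adjusted p = 0.0225), by Fisher's exact test. The differences from far intronic and near intergenic peaks did not pass over 1000 bp from a TSS (Fisher's exact test, adjusted p of 0.122 and 0.0768) or in the conservative list (0.148 and 0.0574). Among the strongest 500 peaks the difference from promoter peaks turned to 1.45 points (adjusted p = 0.870 by Fisher's exact test). In the strongest group of members 98.0% were in both lists, then 70.9%, 15.3% and 5.61%. The conservative list held 667 members (85.1%) with the same start, end and summit, against 81.7% of all main-list peaks. This count asked for identical coordinates, not overlap, so a member with a shifted peak there was not counted.

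**Figure D2:**
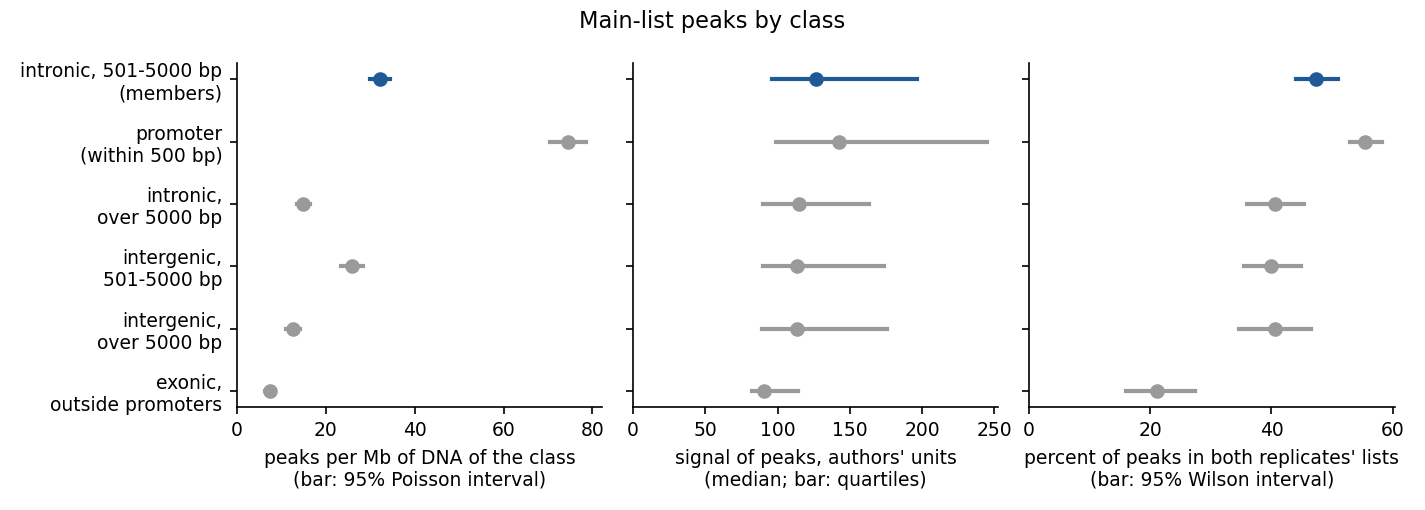
Main-list peaks of 6 classes, as peaks per Mb of the DNA of that class with 95% Poisson intervals (left), signal in the authors' units as median and quartiles (middle), and percent of peaks in both replicates' lists with 95% Wilson intervals (right). Members lie below promoter peaks in all 3 panels, at 32.1 against 74.5 peaks per Mb.

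Replicate signals were close in the members found in both lists. Members with unequal replicate signals are less likely to be in both lists, so this does not describe all members. Across the 372 members in both lists, Pearson's r on log2 signal was 0.834 and Spearman's rho was 0.780, as a description across peaks that share 2 libraries. Close members can overlap the same replicate peak, so some replicate signals enter more than once. In the 360 members whose replicate summits lay within 100 bp of each other, the values were 0.858 and 0.793. The ratio of replicate 2 to replicate 1 had a median of 0.987 and quartiles of 0.825 and 1.20, and the replicate summits lay a median of 17.0 bp apart. Most members, 633, were 360 bp wide, and these had a median signal of 112.6; the 149 narrower ones had 343.0. The 33 members with a signal under 40 lay beside other peaks: 32 had a stronger main-list summit within 400 bp. Of the 33, 8 were in both lists and 20 carried the highest score of 1000. Keeping 1 member per 400 bp left 752.

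**Figure D3:**
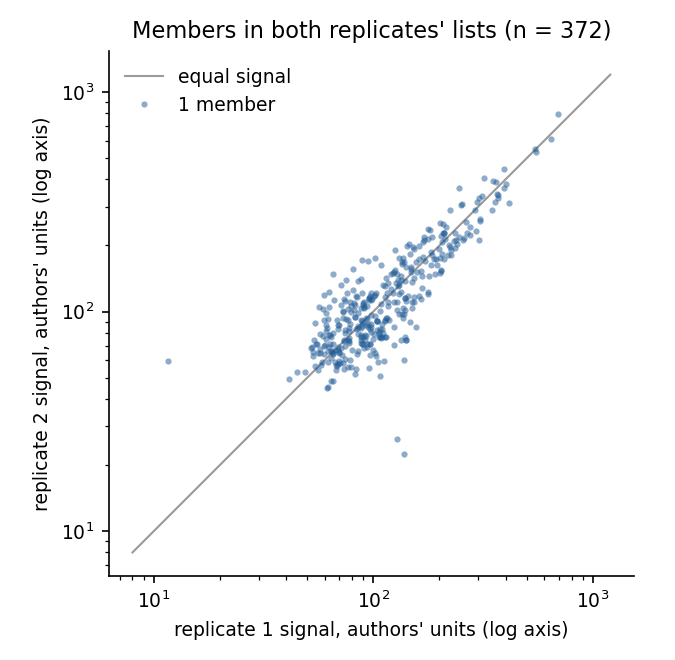
Signal in replicate 2 against signal in replicate 1, both in the authors' units on log axes, for the 372 members in both lists; the line marks equal signal. The points follow the line, with 3 members far from it. Some close members share a replicate peak.

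Members were densest in first introns and close to the start site. The DNA meeting the rule covered 24.4 Mb, and held 32.1 members per Mb (95% exact Poisson interval 29.9 to 34.4). Promoter DNA held 74.5 peaks per Mb, far intronic DNA 14.9, near intergenic DNA 25.8 and exonic DNA outside promoters 7.35. The summit lay in a first intron of a transcript in 579 members (73.9%, 95% interval 70.7 to 76.8%), while first introns made up 57.5% of the DNA meeting the rule. The nearest TSS belonged to a gene around the summit in 617 members (78.7%), against 65.9% of that DNA. In first introns with the host's own TSS nearest there were 44.9 members per Mb (41.1 to 49.0), and in later introns with another gene's TSS nearest 16.1 (12.8 to 19.8). Density fell with distance, from 46.7 per Mb up to 1000 bp to 33.3, 28.8 and 27.5 in the next bins of 1000 bp, and 21.9 from 4000 to 5000 bp. Beyond 1000 bp the intervals of neighbouring bins overlapped, also for the last bin (17.2 to 27.4, against 22.8 to 33.0 before it). That of the first bin (40.6 to 53.6) stood apart.

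**Figure D4:**
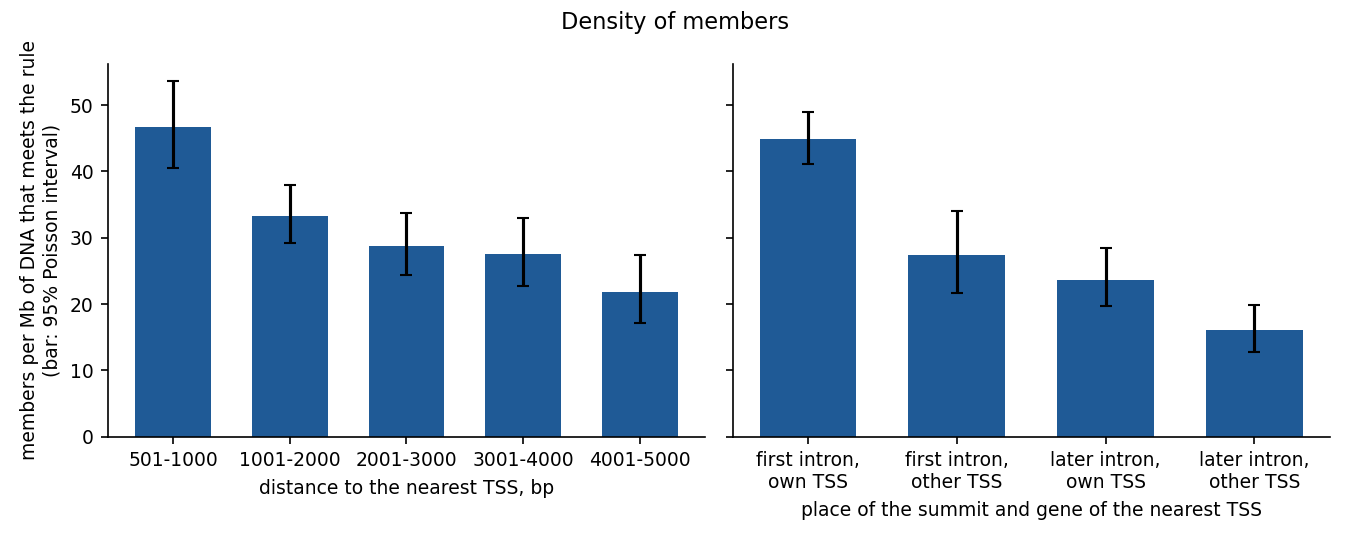
Members per Mb of DNA that meets the rule, with 95% Poisson intervals, by distance of the summit to the nearest TSS in bp (left) and by intron and by gene of the nearest TSS (right). Bars fall from 46.7 to 21.9 with distance, and the highest bar on the right is 44.9, for first introns whose own TSS is nearest.

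Members per Mb were 39.1 on X (33.7 to 45.1), 27.6 on 2L (23.0 to 33.0), 33.8 on 3L (28.9 to 39.3) and 31.3 on 3R (26.9 to 36.4), on 2R the interval was 25.1 to 35.6, and arm 4 had 3.32 (0.0841 to 18.5). Arms were not compared by a test. Members were downstream of the nearest TSS in 469 cases and upstream in 315. The exon-free stretch around the summit had a median of 4951.0 bp, against 4498.0 bp over all DNA meeting the rule. Stretches up to 1000 bp held 15.1 members per Mb (11.5 to 19.5), below the 37.4 (32.3 to 43.0) of stretches over 1000 and up to 3000 bp. A main-list promoter peak stood at the nearest TSS of 117 members (14.9%), and for all but 16 of these it was a TSS of the host gene. Near intergenic peaks had one in 53 of 420 cases (12.6%), a difference of 2.30 points that did not pass (Fisher's exact test, p = 0.298); within the conservative list the difference was 4.62 points (p = 0.0344). Most members therefore had no called peak at the nearest start site, within the authors' threshold.

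The 20 strongest members found in both lists lay in 19 host genes. Several of these encode regulators of transcription or signalling, a share that was not compared with that among all host genes. All 20 had a TSS of the host as the nearest TSS, 17 lay in a first intron, and 5 had a promoter peak at that TSS. Their signals ran from 614.45 to 1500.5, their distances from 556 to 4469 bp, and the ratio of replicate 2 to replicate 1 from 0.754 to 1.27. Since they were chosen by signal and by presence in both lists, these values describe them and test nothing. The strongest, in CG11050 (FBgn0031836; 2L, 6612533 to 6612894; 1026 bp from the TSS), had a signal of 693.55 in replicate 1 and 796.59 in replicate 2, and an exon-free stretch of 140 bp around its summit. The next lay in Adf1 (FBgn0284249; 2R, 6662899 to 6663208), which encodes a transcription factor first known from the Adh promoter, with 645.18 and 611.27. In both genes the replicates differed by far less than the range over members.

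Further strong members, by signal, were the following. Tlk (FBgn0283657; X, 3742076 to 3742363), which encodes a tousled-like kinase acting on chromatin assembly, had 552.14 in replicate 1 and 532.60 in replicate 2. The member in Trl (FBgn0013263; 3L, 14759361 to 14759648), the gene of the GAGA factor, had 400.81 and 381.95, and lay 1528 bp upstream of its nearest TSS, which is one of Trl's own. HmgZ (FBgn0010228), a high mobility group chromatin protein gene, had 413.08 and 311.55, and chif (FBgn0000307), whose product is a fly counterpart of the Dbf4 replication factor, 371.38 and 327.91. The remaining strong members included those of CG32772 (546.20 and 547.33), CG3726 (394.87 and 444.33), LPCAT, a phospholipid acyltransferase gene (362.53 and 387.77), babos (349.27 and 393.19), mub, an RNA-binding protein gene (370.11 and 340.43) and Fili (366.25 and 343.08). CG9663, which held 2 of the 20, had 391.82 and 366.05 at the stronger. The last of the 20, in Pli, a pellino gene of the Toll pathway, had 295.58 and 316.93. Pak3, a p21-activated kinase gene that acts on the actin cytoskeleton, had 318.41 and 404.60, and CG12769 348.89 and 290.13. Replicate 1 was higher in some and replicate 2 in others, so neither replicate was high throughout.

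Among the 20, aos and aop are on the list of receptor tyrosine kinase genes, the pathway in which a growth factor receptor acts through Ras and MAP kinase on Ets transcription factors. The member in aos (FBgn0004569; 3L, 16480443 to 16480690), which encodes a secreted inhibitor of the EGF receptor ligand Spitz, had 357.74 in replicate 1 and 316.37 in replicate 2. That in aop (FBgn0000097; 2L, 2163549 to 2163786), the gene of the Ets repressor Yan, had 302.97 and 328.52. That in edl, a gene that is not on the list (FBgn0023214; 2R, 18671607 to 18671849), whose product antagonises Yan, had 312.25 and 336.74. All 3 were in both replicates' lists. Of 33 genes on the receptor tyrosine kinase list, 14 (42.4%) held a member, at 77.3 members per Mb of DNA meeting the rule. Over all 13945 protein-coding genes 573 (4.11%) held one, at 32.0 per Mb; among the 9105 with any such DNA the share was 6.29%, against 43.8% of the 32 listed genes with such DNA. The genes of the list had a median of 4.34 kb of that DNA each, against 0.457 kb over all genes, so the density, not the share of genes, is the measure to compare. Next in signal on the list were S (Star, 223.92 and 290.02), which carries EGF receptor ligands through the secretory pathway, and InR, the insulin receptor gene (181.07 and 235.87). Egfr itself held 1 (207.83 in the main list). The Ets activator gene pnt held 5 members, the strongest at 156.25, of which 2 close summits shared 1 replicate peak.

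Of the other lists, 8 also had densities above the 32.0 per Mb of all protein-coding genes. No intervals were computed for list densities, and some rest on few members. The insulator list held 1, the Hox and neural lists 7 each, and the segment polarity and Polycomb lists 8 each. The dorsoventral and BMP list had 8 of 30 genes with a member and 87.8 members per Mb. In it Mad, the Smad that carries the BMP signal to the nucleus, had 203.95 in replicate 1 and 221.02 in replicate 2, and ush, a zinc finger cofactor of GATA proteins, 169.20 and 176.66. The receptor gene tkv (103.62 and 82.454) held 3, and shn, a BMP-responsive zinc finger gene, held 5, the strongest with 150.99 and 112.46. Of the 8 Hox genes, which set segment identity, 4 held a member, at 69.2 per Mb: Antp, Ubx, Abd-B and lab, with signals from 111.41 to 157.63, and those of Antp and Abd-B were in both lists. The neural list had 5 of 25 genes and 76.3 per Mb, led by grh (208.92 and 227.28), an epidermal and neuroblast transcription factor gene, and brat (183.76 and 163.34), a translational repressor and tumour suppressor gene. The Polycomb and trithorax list had 6 of 35 and 51.4 per Mb, with Trl and grh at its head; grh stands on both lists. The GTPase and actin list had 16 of 48 and 50.1 per Mb, led by RhoGAP18B (256.00 and 212.07), and the mesoderm and muscle list 6 of 34 and 48.3 per Mb, led by kirre, an adhesion gene of muscle founder cells (249.66 and 306.17), and mbc (205.54 and 206.49). Of the 15 members in the mesoderm and muscle list, 7 lay inside kirre, counting every member whose summit the gene contained.

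The segment polarity, Wnt and Hedgehog list (6 of 31 genes) had 38.5 members per Mb, led by nkd (129.35 in replicate 1 and 64.534 in replicate 2), an inhibitor of Wnt signalling, and the insulator list had 1 of 21, Trl, at 37.9. The other lists had densities below that of all genes. Nuclear receptors and ecdysone genes (5 of 25) had 27.4, led by Hr3 (124.18 and 151.22); Notch pathway genes (2 of 20, neur and mam) had 26.7. Axon guidance and adhesion genes had 12 of 51 with a member but only 24.3 per Mb, led by Sema1a (157.20 and 168.50). Homeobox genes outside Hox had 4 of 70 and 19.8 per Mb, led by zfh1 (306.30 and 259.34), and included ey, an eye determination gene with the only member on arm 4 (54.708 and 53.513). Ion channel genes had 5 of 49 and 15.7 per Mb, led by KCNQ (170.30 and 219.52). None of the 11 gap and 9 pair-rule genes, 92 cytoplasmic and 73 mitochondrial ribosomal protein genes, 230 chemoreceptor genes and 96 cuticle protein genes held one. Their DNA that meets the rule ran from 5.336 kb in the cytoplasmic ribosomal genes to 74.57 kb in the chemoreceptor genes. For comparison, the insulator list had 26.40 kb and 1 member, and the neural list 91.72 kb and 7. Whether the amount of DNA accounts for the empty lists was not tested. The lists were compared by counts and density alone, with no test of a list.

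**Figure D5:**
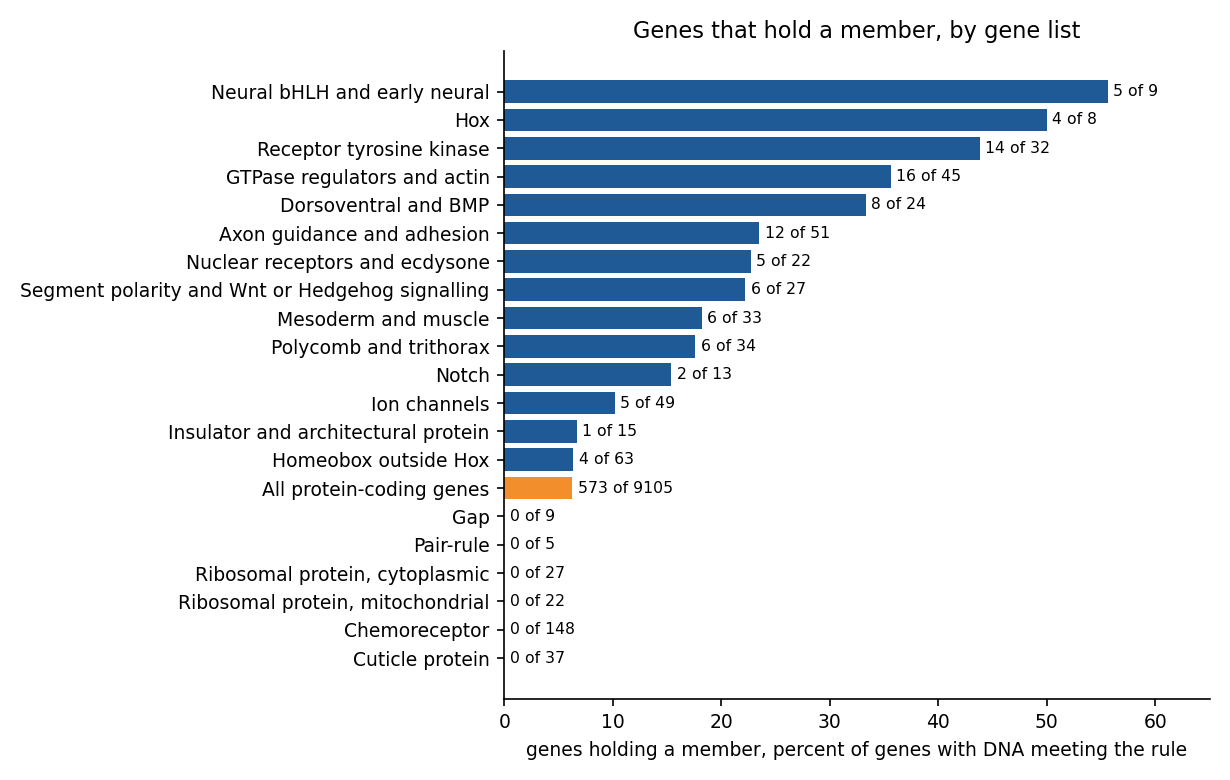
Percent of genes with DNA meeting the rule that hold a member, for 20 gene lists and for all protein-coding genes (orange), with the numbers of genes beside the bars. Receptor tyrosine kinase genes reach 43.8% against 6.29% of all genes, and the bars do not correct for gene length.

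Members were spread over 562 host genes, each member counted once, of which 421 held 1, 141 held 2 or more and 18 held 4 or more. CHES-1-like (FBgn0029504; X, 7682338 to 7709385), a forkhead-type gene, held 8 on 14.7 kb of DNA meeting the rule, with signals up to 346.85, and 4 of the 8 were in both lists. CG1677 held 7 on 58.1 kb, CG43658 held 7 on 44.5 kb, and apt, a transcription factor gene of tracheal and head development, held 6 on 20.1 kb. Tlk and kirre held 5 each, on 34.6 and 107 kb, and shn, tou and pnt held 5 as well. Raf, the kinase between Ras and MAP kinase and not on the receptor tyrosine kinase list, held 4, all in both lists, the strongest with 263.85 in replicate 1 and 255.08 in replicate 2; it was picked after its values were seen. For 58 members the summit lay inside 2 or more genes, and for 19 inside no protein-coding gene. CG10959 itself held none, with 0.0680 kb of such DNA.

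The limits of the rule cut through a continuous range. Just inside the lower limit were members in Pino, 1 bp past it, with a signal of 99.3730, and in lncRNA:CR44078, at 504 bp with 268.109. Just outside were peaks at ph-p, at 500 bp with the main list's highest signal of 1924.84, and at aru, at 499 bp with 347.372. The gene ph-p, of the Polycomb group, also held a weaker member, 1242 bp from a TSS, with 93.019 in replicate 1 and 87.048 in replicate 2. At the upper limit, members in cv-c at 4963 bp and fz2 at 4980 bp had signals of 143.709 and 15.2139, and peaks in cno at 5002 bp and tara at 5010 bp, which were left out, had 390.825 and 183.249.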

How the data were processed

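Chromatin immunoprecipitation of CG10959-eGFP was sequenced from 2 biological replicates. Per the descriptions deposited with the lists, they are narrowPeak lists on dm6, derived from sample and control alignments, as ranked and IDR thresholded lists. Sources used here do not give the aligner or caller. The deposited signal is the authors' enrichment of a peak, whose scale is not stated; it was compared within a list only, or set side by side for the replicates. The deposited score, a whole number up to 1000 (830 or more in the main list), was only described. The pooled ranked lists have 16 columns of per-replicate values that no label assigns to a replicate, and these stayed unused. Read numbers were not given, so depth is unknown, and intervals cover counting of peaks only.

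Members, gene lists (518 symbols; 16 updated through synonyms, 5 unmatched) and motifs were chosen with earlier results of these data known. Summits were placed on the Ensembl release 115 annotation (TSSs of transposable elements and pseudogenes left out), sequence was read from RefSeq's copy of dm6, and coordinates are 1-based. A peak was in a replicate's list if it overlapped a peak there by 1 bp or more; replicate signals of named members are those of the nearest summit in that replicate's ranked list. Shares were compared by Fisher's exact test, paired windows by the exact McNemar or sign test, two-sided, with Benjamini-Hochberg adjustment within each family and a threshold of 0.05. Densities used every base that meets the rule. A gene on a list held each member whose summit it contained; in counts of host genes each member had 1 host.

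Named genes were the hosts of the 20 strongest members in both lists, the 6 hosts with the most members, up to 4 hosts of each list by signal, the members nearest to each limit, and CG10959. Others were named after their values were seen: Egfr, Raf, pnt, and, tied at 5 members, tou. Alternatives were the conservative list, each replicate's list, the strongest 500 peaks, other distances, overlaps, windows and flanks. Those on GC-matched members, exon-free windows, signals of 40 or more and 1 member per 400 bp were added after the data were seen. Tests were tested on simulated data. Python 3.11.15, numpy 2.4.6, scipy 1.17.1 and matplotlib 3.10.9 were used.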

Additional observations from a re-analysis of the deposited data

How the results depend on the processing

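The GC decrease at the summit kept its direction and passed under all 12 alternatives tried, with a median difference from -13.9 to -4.95 points. The number of members was 438 up to 2000 bp, 108 among the strongest 500 peaks, and 494 to 540 in the lists of single replicates. First-intron and own-TSS shares were 79.5% and 84.5% up to 2000 bp, 80.6% and 88.0% among the strongest 500 peaks, and 74.9% to 76.1% and 79.8% to 80.0% in single replicates' lists. The signal difference was, in points of share, -3.51 from promoter peaks up to 2000 bp; 5.01 and 4.94 from far intronic and near intergenic peaks over 1000 bp; 4.18 from near intergenic peaks in the conservative list; and 2.46, 9.80 and 15 from promoter, far intronic and near intergenic peaks among the strongest 500, none past the threshold. In single replicates' lists it ran from -7.18 to -7.06, 5.36 to 15.3 and -0.684 to 5.75 from promoter, far intronic and near intergenic peaks; the call against far intronic peaks was lost in the list of replicate 2, and that against near intergenic peaks in both. The difference in presence in both lists was no longer past the threshold at -4.63 from promoter peaks up to 2000 bp, at 5.03 and 6.81 from far intronic and near intergenic peaks over 1000 bp, at 4.60 and 6.52 in the conservative list, at 5.50 from far intronic peaks with overlap of at least 0.5 of both peaks, and at 1.45, 3.45 and 0 from the 3 classes among the strongest 500. The promoter peak at the nearest TSS passed in the conservative list (4.62 points) and was 0.792 to 3.45 in single replicates' lists. Motifs higher at the summit numbered 1 over 1000 bp, in the conservative list, with the flank at 600 bp and with exon-free windows, 0 among the strongest 500, in unmasked members and with matched GC, and 1 to 2 in single replicates' lists. Motifs lower at the summit numbered 0 over 1000 bp, with the flank at 600 bp, with the wider window, among the strongest 500 and with matched GC, 1 up to 2000 bp, 5 in the conservative list and 0 to 3 in single replicates' lists. With matched GC the TATA box difference was -3.26 points. Class tests passed numbered 1 up to 2000 bp, 0 among the strongest 500, 6 with the wider window and 0 to 2 in single replicates' lists. The 8-mers passed numbered 0 over 1000 bp, with the flank at 600 bp or towards the TSS and among the strongest 500, 3 with exon-free windows and 0 to 3 in single replicates' lists. The strongest 500 peaks hold fewer members; the causes of the other changes were not tested. No paired analysis was possible because the labels give 1 group, so no replicate number is shared between groups.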
